A study of Tupaia belangeri with 8 samples.

Results

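The miR-181 family was followed in primary neurons of the tree shrew (Tupaia belangeri) by small RNA sequencing. Its members were taken by name from the deposited table and are tch-miR-181a-5p, tch-miR-181b-5p, tch-miR-181c-5p and tch-miR-181d, 4 of 384 miRNAs. The prefix tch marks tree shrew and is left out where it is not needed. All 4 passed the filter on low counts, and no other listed miRNA carried a miR-181 name. The tested neurons came from neonatal brain and received methamphetamine (METH), a psychostimulant that releases dopamine, as 5 µl of a stock given as 100 mmol in 995 µl of complete neuronal medium for 24 h. The control neurons, labelled PBS, were collected at the same time from 1 ml of that medium without METH after the same PBS rinse. Both groups grew in Neurobasal-A with 15% fetal bovine serum and B-27, and each had 4 libraries, numbered 1 to 4 in the sample titles. The study set out to learn how METH damages such neurons. The labels give no sex, genotype or exact age, and do not state that replicate libraries stem from different animals or cultures, so all p-values rest on a spread between libraries that may be technical.

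A miRNA guides the silencing complex to messenger RNAs through its seed, the bases near its 5′ end, and the members of the miR-181 family share theirs. In mouse the family is best known from T cell development, where miR-181a tunes the sensitivity of the T cell receptor, and in rodent brain its members repress anti-apoptotic Bcl-2 proteins and limit survival of astrocytes and neurons after ischaemia. In rodent neurons, dopamine signalling raises miR-181a, which represses the glutamate receptor subunit GluA2. miR-181b represses importin-α3 and with it NF-κB entry into the nucleus of human and mouse endothelial cells. miR-181c represses TNF-α in rodent microglia, and miR-181d represses the DNA repair enzyme MGMT in human glioma. Mammals make miR-181a and miR-181b together from shared precursor transcripts, and miR-181c and miR-181d from another.

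All 4 members matched RefSeq's gene table for the tree shrew assembly TupChi_1.0, which holds 5 miR-181 genes. MIR181B and MIR181A-1 are neighbours in that table, as are MIR181C and MIR181D, while MIR181A-2 stands apart from the other 4. By that table miR-181a-5p can come from either of 2 genes, and its reads are given as 1 value. Whether the table lists every miR-181 gene of the tree shrew was not tested. In human, the mature miR-181b and miR-181d differ at a single base and miR-181a and miR-181c are nearly identical. The labels and file headers do not say how reads shared by such members were assigned, so the split between them is uncertain.

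The 4 members stood in the same order of reads in all 8 libraries, miR-181a-5p above miR-181b-5p, miR-181d and miR-181c-5p. How evenly the adapter ligation captured each member was not tested, so the order is one of reads. Levels are given as the authors' deposited TPM, which here are reads scaled to each library's total over the listed miRNAs, with no length term, and mature miRNAs are close in length. tch-miR-181a-5p was at 1796, 2507, 16348 and 3344 TPM in METH 1 to 4, against 19611, 736, 5574 and 2396 TPM in PBS 1 to 4. It ranked 24th of the 384 by mean TPM. The highest libraries were METH 3, PBS 1 and PBS 3, and the groups overlapped over almost their whole range.

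tch-miR-181b-5p was at 1054, 1303, 6408 and 1559 TPM in METH 1 to 4, against 4804, 704, 4369 and 1225 TPM in PBS 1 to 4. tch-miR-181d was at 364, 370, 1097 and 549 TPM in METH 1 to 4, against 1671, 286, 1411 and 400.4 TPM in PBS 1 to 4. For both members the 3 highest libraries were again METH 3, PBS 1 and PBS 3, PBS 2 was the lowest, and the groups overlapped. tch-miR-181c-5p, the rare member, was at 20.2, 13.2, 50.1 and 22.7 TPM in METH 1 to 4, against 60.8, 6.42, 28.3 and 14.9 TPM in PBS 1 to 4. These values rest on 13, 9, 17 and 152 reads in METH 1 to 4, against 32, 5, 11 and 109 reads in PBS 1 to 4.

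**Figure D1:**
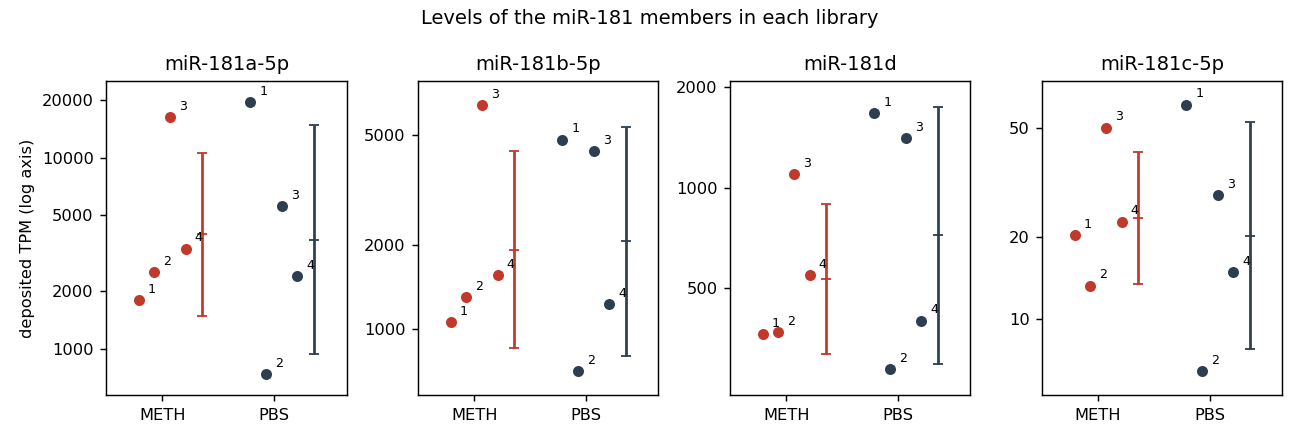
Deposited TPM (log axis) of the 4 miR-181 members in the METH and PBS libraries. Points are libraries with their number, and the bar is the geometric mean with 1 SD on the log2 scale (n = 4 each). In TPM, METH 3, PBS 1 and PBS 3 are the 3 highest libraries for each member, and PBS 2 is the lowest. For miR-181c-5p the places of PBS 3 (11 reads) and PBS 2 (5 reads) rest on few reads and are uncertain.

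Within a library, miR-181a-5p had 1.93 times the reads of miR-181b-5p (geometric mean over 8 libraries, range 1.05 to 4.08). miR-181b-5p had 3.21 times the reads of miR-181d (range 2.45 to 5.84), and miR-181d had 27.6 times the reads of miR-181c-5p (range 17.4 to 47.7). Each of the 6 pairs of members kept its direction in 8 of 8 libraries (exact two-sided sign-flip permutation test, p = 0.00781 each and 0.00781 adjusted over the 6 pairs, the smallest p that 8 libraries can give). The narrowest gap was in PBS 2, where miR-181a-5p had 573 reads and miR-181b-5p 548. There miR-181a-5p made up 51.1% of their sum (exact 95% interval 48.1 to 54.1), so the pair was not separable at that depth. The intervals of shares cover counting error only, since the protocols mention no molecular identifiers.

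Total counts over the listed miRNAs ran from 339243 to 6702946 in METH and from 388419 to 7334789 in PBS, with both libraries numbered 4 the deepest. METH 3, PBS 1 and PBS 3 stood apart from the other 5 libraries. miR-21-5p, the most abundant miRNA, held 5.26%, 7.53% and 6.95% of their reads, and between 33.5% and 49.3% in the other 5. Of 10 neuron-enriched miRNAs listed, 5 matched a name in the table, and miR-124, a defining neuronal miRNA, was not among them. An unmatched name does not show that a miRNA was absent, since 225 of the deposited miRNAs carry a predicted name only. Whether miR-124 is among those was not tested. The summed level of the 5 matched miRNAs was 92612 TPM in METH 3, 94069 TPM in PBS 1 and 24844 TPM in PBS 3. It was between 20754 and 73484 TPM in the other METH libraries and 21437 and 46823 TPM in the other PBS libraries. METH 3 and PBS 1 were thus the highest in this sum, while PBS 3 lay among the other 5. Most of the sum there was miR-9-5p, at 71931 TPM in METH 3 and 83062 TPM in PBS 1. miR-129-5p was also highest in METH 3 and PBS 1, and miR-128 was highest in PBS 3. miR-7-5p and miR-218-5p went the other way, lower in METH 3 and PBS 1 than in METH 1, METH 2 and PBS 2. The sum therefore does not show that neuron-enriched miRNAs in general were higher there.

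The family as a whole held more of the reads in the 3 libraries that stood apart. Its share was 0.323%, 0.419%, 2.39% and 0.548% in METH 1 to 4, against 2.61%, 0.173%, 1.14% and 0.404% in PBS 1 to 4. METH 3 and PBS 1 were the highest, PBS 3 came next, and the other 5 libraries lay below 1%. The share averaged 0.920% ± 0.984 in METH and 1.08% ± 1.10 in PBS (SD, n = 4 each). The difference of mean log2 shares was −0.06 (METH minus PBS, SE 1.07, exact two-sided permutation p = 0.943, adjusted p = 0.943 over 3 ratios and this share). It was 0.67 without METH 3, PBS 1 and PBS 3. The smallest p that the 70 splits allow is 0.0286.

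miR-21-5p makes up much of the denominator of these shares in the other 5 libraries. As a share of the reads other than miR-21-5p, the family still held 2.52% in METH 3, 2.83% in PBS 1 and 1.22% in PBS 3. The other libraries lay between 0.532% and 1.05% in METH and at 0.260% and 0.796% in PBS. METH 3, PBS 1 and PBS 3 thus remained the 3 highest in this share, though PBS 3 lay only a little above METH 4 (1.05%). In a culture of mixed cells, fewer cells of a type and less of a miRNA per cell cannot be told apart.

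Markers of other cell types differed between the same libraries, and their part in the miR-181 levels was not tested. Of 5 epithelial miRNAs listed, 4 matched, and their sum was 513 TPM in METH 3, 549 TPM in PBS 1 and 46.3 TPM in PBS 3. It was between 4.41 and 7.78 TPM in the other METH libraries and 9.82 and 23.1 TPM in the other PBS libraries, and miR-141-3p was at 0 in 7 of the 8. The fibroblast and smooth muscle sum (3 of 6 matched) ran from 13571 TPM in METH 3 to 59378 TPM in METH 4, and from 16689 TPM in PBS 1 to 60941 TPM in PBS 2. The microglia and leukocyte sum (2 of 5 matched) was 5344 TPM in METH 3, 3110 TPM in PBS 1 and 4786 TPM in PBS 3. It was between 391 and 883 TPM in the other METH libraries and 456 and 806 TPM in the other PBS libraries. The 3 libraries highest in this sum were thus also those highest in miR-181 TPM, but the sum was mostly miR-155-5p. The blood-lineage miR-142 did not share that pattern. It was at 0 in 4 of the 8 libraries, METH 3 and PBS 1 among them, and highest in METH 1 (56.0 TPM). The blood and serum sum (2 of 5 matched) ran from 7.76 to 64.9 TPM in METH and from 38.0 to 139 TPM in PBS. The oligodendrocyte miR-219-5p was at 0 in 6 libraries and at most 0.597 TPM, and no listed endothelial miRNA matched.

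METH and PBS neurons did not differ in the level of any miR-181 member beyond the spread between libraries. In normalised CPM (counts scaled to the library total with a TMM factor, which corrects for a few miRNAs that dominate a library), miR-181a-5p averaged 5932 ± 5843 in METH and 5074 ± 5550 in PBS (SD, n = 4 each). Its log2 fold change was 0.23 (METH over PBS, SE 0.84, 95% interval −1.62 to 2.07, edgeR quasi-likelihood adjusted p = 0.999). METH 3 alone lay above the PBS mean. The sign rested on single libraries, with −0.81 without METH 3 and 1.33 without PBS 1.

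miR-181b-5p averaged 2601 ± 2104 normalised CPM in METH and 2041 ± 977 in PBS, which is a log2 fold change of 0.35 with an SE of 0.62 and an interval of −1.0 to 1.70 (edgeR adjusted p = 0.999). Without METH 3 it was −0.47, and without PBS 1 it was 0.64. miR-181d averaged 632 ± 268 in METH and 703 ± 322 in PBS, which is a log2 fold change of −0.15 with an SE of 0.55 and an interval of −1.35 to 1.05 (edgeR adjusted p = 0.999), and 0.13 without PBS 1. miR-181c-5p averaged 28.4 ± 13.0 in METH and 21 ± 13.9 in PBS, which is a log2 fold change of 0.42 with an SE of 0.65 and an interval of −1.0 to 1.84 (edgeR adjusted p = 0.999). It was 0.06 without METH 3 and 0.92 without PBS 1. For miR-181b-5p, miR-181c-5p and miR-181d the interval excluded a 4-fold change in either direction, as it did for 94 of the 166 tested miRNAs (56.6%). For miR-181a-5p it did not.

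edgeR called 0 of the 4 members, and 0 of all 166 tested miRNAs (0%) at an adjusted p of 0.05. With TMM, edgeR gave 0 miRNAs an unadjusted p under 0.05, and with total counts only it gave 1. DESeq2 called 0, with 1 at an unadjusted p under 0.05. Without the filter on low counts edgeR gave 10 of 384 such a p, and with METH 1 or METH 3 left out it gave 4, still with 0 called. Members with a log2 fold change above 0 numbered 3 of 4 (median 0.29) with TMM, against 126 of 166 tested miRNAs (75.9%, median 0.21). The members' direction followed the scaling, with 3 of 4 above 0 under DESeq2 size factors, 2 under upper quartile factors and 0 under total counts only. These scalings moved the log2 fold changes of all tested miRNAs by a median of −0.15, −0.16 and −0.35.

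**Figure D2:**
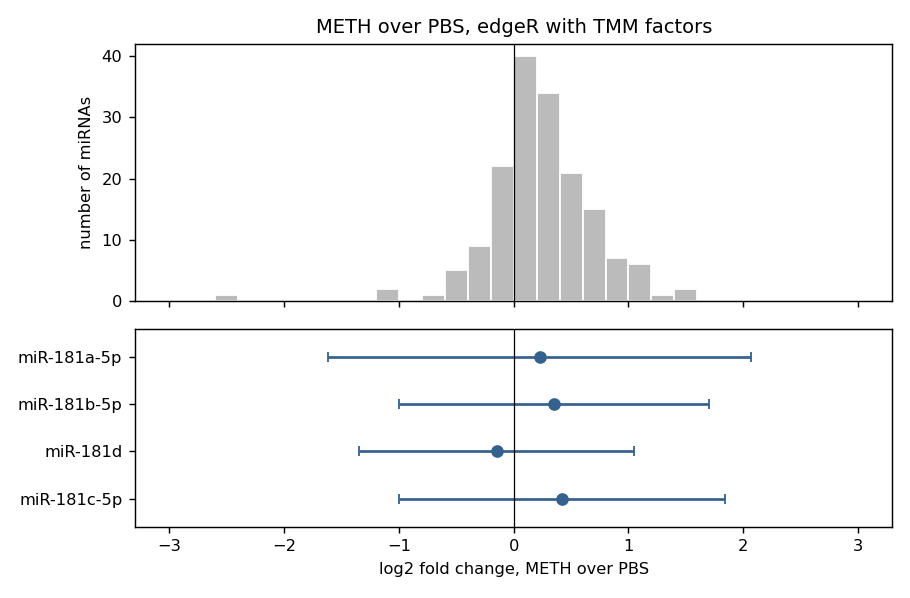
Upper panel, number of miRNAs by log2 fold change (METH over PBS, edgeR with TMM, 166 tested). Lower panel, the 4 miR-181 members with 95% intervals, all of which span 0. The members lie within the bulk of all miRNAs, between −0.15 and 0.42.

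Ratios between members need no scaling between libraries. In the a/b clusters, miR-181a-5p had 1.70, 1.92, 2.55 and 2.14 times the reads of miR-181b-5p in METH 1 to 4, against 4.08, 1.05, 1.28 and 1.96 times in PBS 1 to 4. The METH libraries lay inside the range of the PBS libraries. The mean log2 ratio was 1.04 ± 0.25 in METH and 0.85 ± 0.87 in PBS, a difference of 0.19 (SE 0.45, exact permutation p = 0.714, adjusted p = 0.943, n = 4 each). It was −0.08 without PBS 2 and 0.58 without PBS 1. The ratio did not follow the family's level in every library. PBS 1, with the largest family share, had the highest ratio, while PBS 3, which also stood apart, had the second lowest.

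In the c/d cluster, miR-181c-5p made up more of the reads in METH neurons, but the difference did not pass the adjustment. With 0.5 reads added to each count, the ratio of miR-181c-5p to miR-181d was 0.0576, 0.0376, 0.0470 and 0.0414 in METH 1 to 4, against 0.0370, 0.0246, 0.0210 and 0.0373 in PBS 1 to 4. So computed, every METH library lay above every PBS library, with METH 2 barely above PBS 4. The mean log2 ratio was −4.46 ± 0.27 in METH and −5.11 ± 0.42 in PBS (SD, n = 4 each). The difference was 0.64, or 1.56-fold (SE 0.25, exact two-sided permutation p = 0.0286, adjusted p = 0.114).

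That separation depended on the added 0.5 reads. On the reads as deposited the ratio was 0.0357 in METH 2, below 0.0371 in PBS 4 and 0.0364 in PBS 1, and the groups overlapped. The difference was then 0.66 (exact permutation p = 0.0857, adjusted p = 0.343). The deep libraries carried the best-measured values. Of the reads of miR-181c-5p and miR-181d together, miR-181c-5p held 3.97% in METH 4 (152 of 3833 reads, exact 95% interval 3.37 to 4.63) and 3.58% in PBS 4 (109 of 3046 reads, interval 2.95 to 4.30), and these intervals overlapped. In the shallow libraries the share was between 3.45% and 5.26% in METH and between 1.97% and 3.51% in PBS. The intervals there reached as wide as 2.83 to 8.83 in METH 1 and 0.716 to 5.04 in PBS 2.

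The clusters were also set against each other. miR-181c-5p and miR-181d together had 0.135, 0.101, 0.0505 and 0.117 times the reads of miR-181a-5p and miR-181b-5p in METH 1 to 4, against 0.0710, 0.204, 0.145 and 0.115 times in PBS 1 to 4. The lowest values were those of METH 3 and PBS 1, where miR-181a-5p was highest, and the groups overlapped. The difference of mean log2 ratios was −0.40 (SE 0.45, exact permutation p = 0.400, adjusted p = 0.800). It was −0.09 without METH 3 and −0.67 without PBS 1.

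**Figure D3:**
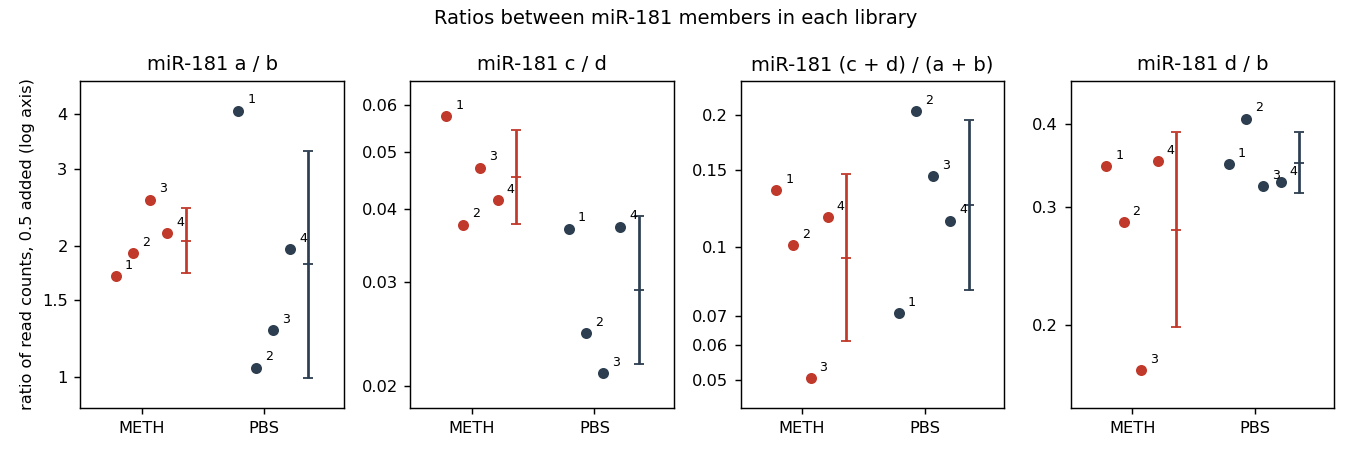
Ratios of read counts between miR-181 members (0.5 reads added, log axes) in METH and PBS libraries. Points are libraries with their number, and the bar is the geometric mean with 1 SD on the log2 scale (n = 4 each). The c/d ratio lies between 0.0376 and 0.0576 in METH and between 0.0210 and 0.0373 in PBS, and METH 3 is the lowest library for d/b at 0.171.

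The make-up of the family followed from these ratios. miR-181a-5p held 61.2% ± 5.35 of the miR-181 reads in METH and 56.5% ± 14.2 in PBS (SD, n = 4 each), with the highest share, 75%, in PBS 1 and the lowest, 42.5%, in PBS 2. miR-181b-5p held 29.7% ± 2.59 in METH and 31.9% ± 10.1 in PBS. miR-181d held 8.67% ± 2.90 in METH, with 4.59% in METH 3, and 11.3% ± 4.26 in PBS, with 16.5% in PBS 2. miR-181c-5p held between 0.210% and 0.625% in METH and between 0.233% and 0.371% in PBS.

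**Figure D4:**
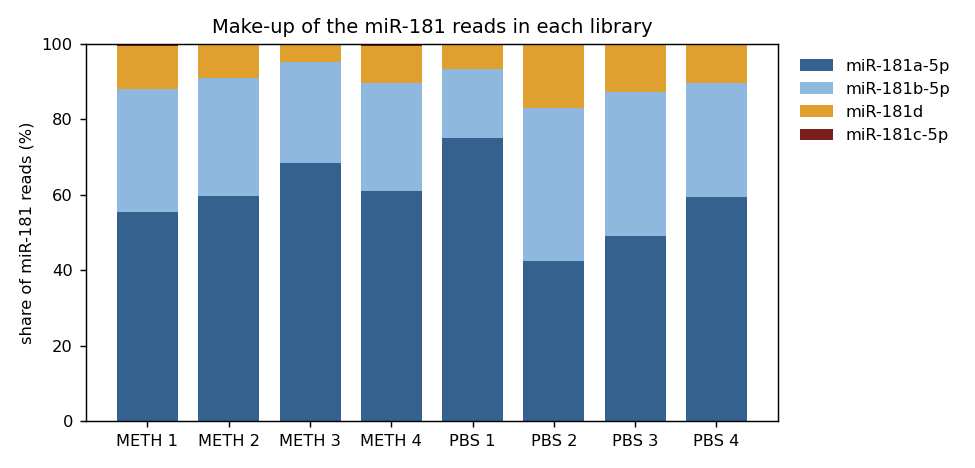
Share of the miR-181 reads (%) held by each member in the METH and PBS libraries. miR-181a-5p is the largest part of each bar, from 42.5% in PBS 2 to 75% in PBS 1, and miR-181c-5p is a thin band at the top.

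How closely the members kept step was measured as the SD of the log2 ratio of read counts over the 8 libraries, a description of libraries that share their total and composition. It was 0.601 for miR-181a-5p and miR-181b-5p and 0.473 for miR-181c-5p and miR-181d. For miR-181b-5p and miR-181d, whose listed genes are not neighbours, it was 0.378, the smallest of the 6 pairs as measured. Counting error alone would give about 0.0513, 0.396 and 0.0808 for these pairs, so the c/d spread was little above its counting error. With the counting variance taken off, the SD was 0.369 for b/d, 0.258 for c/d and 0.291 for b/c. b/d was then not the smallest, but the correction is rough at the low counts of miR-181c-5p, so the order is uncertain. Of the 13695 pairs of tested miRNAs, 5.67% had a smaller SD than the a/b pair, 2.24% than the c/d pair and 0.905% than the b/d pair.

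The ratio of miR-181d to miR-181b-5p was 0.346, 0.285, 0.171 and 0.352 in METH 1 to 4, against 0.348, 0.407, 0.323 and 0.327 in PBS 1 to 4. METH 3 was the lowest and the other 7 lay closer together. Without METH 3 its SD on the log2 scale was 0.157. In METH 3 miR-181d made up 14.6% of the reads of both members (exact 95% interval 13.3 to 16), against 22.1% (interval 19.7 to 24.6) in METH 2, the next lowest library. The difference between METH and PBS was −0.33 (SE 0.25, exact permutation p = 0.257, adjusted p = 0.643 over 5 values), and −0.10 without METH 3. This ratio was added after the values were seen. The human forms of this pair differ at a single base, and the part of shared reads in this ratio was not tested.

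Other miRNAs made from shared transcripts gave a scale for these values. The same SD was 0.409 for miR-221-3p and miR-222-3p, 0.605 for miR-17-5p and miR-20a-5p, 0.679 for miR-23b-3p and miR-27b-3p and 1.6 for miR-191-5p and miR-425-5p. As measured, the a/b and c/d pairs of miR-181 thus lay between the lowest and the highest of these 4 values. With the counting variance taken off, the 4 values were 0.397, 0.599, 0.677 and 1.6 in the same order. The a/b pair then had 0.598, still between them, while the c/d pair had 0.258, below all 4. The correction is rough at the low counts of miR-181c-5p, so the place of the c/d pair is uncertain here too. Over the 5 libraries other than METH 3, PBS 1 and PBS 3, the SD was 0.411 for miR-181a-5p and miR-181b-5p, 0.438 for miR-181c-5p and miR-181d and 0.187 for miR-181b-5p and miR-181d. The other pairs then had 0.148 for miR-17-5p and miR-20a-5p, 0.386 for miR-221-3p and miR-222-3p, 0.589 for miR-23b-3p and miR-27b-3p and 1.05 for miR-191-5p and miR-425-5p. As measured, the a/b and c/d values there lay above those of the first 2 of these pairs. Counting error was not taken off these values, so the place of the c/d pair among them is uncertain.

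The miRNAs whose pattern was most like each member were those with the lowest SD of the log2 ratio to it among the 165 other tested miRNAs, with the other members left out. For miR-181a-5p these were novel_101 (0.590), novel_58 (0.601) and miR-127-3p (0.644), a miRNA of the imprinted DLK1-DIO3 region. miR-181b-5p itself ranked 2nd of the 165 (0.601), and the median over the 165 was 1.45. miR-127-3p was at 2597, 2020, 11308 and 4594 TPM in METH 1 to 4, against 10830.2, 1182, 7065 and 4647 TPM in PBS 1 to 4. Like miR-181a-5p, it was highest in TPM in METH 3, PBS 1 and PBS 3 and lowest in PBS 2.

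For miR-181b-5p they were miR-93-5p (0.297), novel_367 (0.313) and miR-342-3p (0.337), with a median of 1.12 over the 165. miR-93-5p, of the miR-106b-25 cluster, which supports cell division, was also nearest to miR-181d (0.328), followed by miR-103a-3p (0.353) and, beyond miR-181b-5p itself, miR-361-5p (0.403). For miR-181c-5p they were novel_101 (0.236), miR-127-3p (0.422) and miR-148b-3p (0.442). The value of novel_101 lay below the 0.422 that counting error alone would give for that pair, so its rank at these counts carries little information. None of these miRNAs passed the test between METH and PBS (edgeR adjusted p = 0.999 each), with log2 fold changes from −0.24 for novel_58 to 0.44 for miR-148b-3p.

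**Figure D5:**
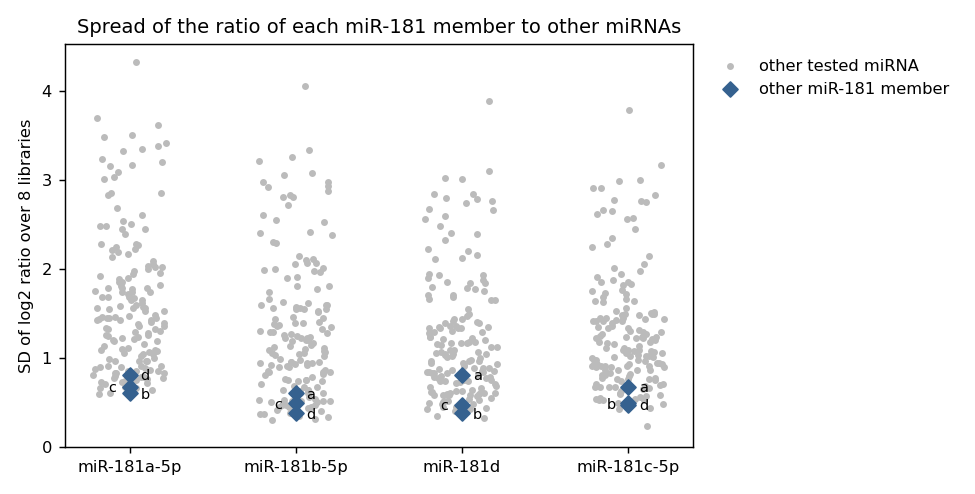
SD over 8 libraries of the log2 ratio of read counts between each miR-181 member and the 165 other tested miRNAs (grey points), with the other 3 members as diamonds. The members' values for each other run from 0.378 for b and d to 0.812 for a and d. Against miR-181d, miR-181a-5p ranked 55th of 165 from the lowest, and against miR-181b-5p it ranked 31st.

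The members also differed in how much they varied. The SD of log2 normalised CPM over the 8 libraries was 1.27 for miR-181a-5p, 0.802 for miR-181b-5p, 0.772 for miR-181c-5p and 0.585 for miR-181d, against a median of 0.955 over the 166 tested miRNAs. In order from the least variable, miR-181d ranked 20th and miR-181a-5p 111th. The highest library exceeded the lowest by 12.9 times in normalised CPM for miR-181a-5p, 5.29 times for miR-181b-5p, 4.53 times for miR-181c-5p and 3.10 times for miR-181d. METH 3 and PBS 1 stayed highest for each member, but the place of PBS 3 depended on the scaling. It stayed next for miR-181b-5p and miR-181d. For miR-181a-5p, PBS 3 was at 3028 normalised CPM against 4222 in METH 4, and for miR-181c-5p at 15.4 against 28.6. miR-181d was then lowest in METH 2 (366), with PBS 2 at 440.

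Of other regulators of neuronal cell death and of inflammation, none passed the test between METH and PBS either. Counts above 0 are read against the 126 of 166 tested miRNAs (75.9%, median 0.21) above 0 with TMM, where 0 were called (0%), and against 64 of 166 above 0 with total counts only. Of 19 listed cell death miRNAs, 14 matched, 12 were tested and 0 passed, with 10 above 0 and 2 below with TMM (median 0.33). The most abundant were miR-21-5p (log2 fold change 0.39, SE 1.02), miR-27b-3p (0.27, SE 0.69), miR-27a-3p (0.23, SE 0.79) and miR-23b-3p (−0.38, SE 0.70). Of 9 listed inflammation regulators, 6 were matched and tested and 0 passed, with 5 above 0 (median 0.14). Beside miR-21-5p, the most abundant were let-7i-5p (−0.15, SE 0.61), miR-125b-5p (0.17, SE 0.72) and miR-125a-5p (0.14, SE 0.80). Of the 5 neuron-enriched miRNAs tested, 0 passed and 5 lay above 0 (median 0.28). The fibroblast and smooth muscle list had 3 tested, 1 above 0 (median −0.47), and 1 each was tested of the microglia and leukocyte list (0.14) and of the blood and serum list (−2.43, miR-122-5p), and none of them passed. Of the oligodendrocyte, endothelial and epithelial lists, 0 members were tested.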

How the data were processed

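Small RNA libraries from METH-treated and PBS control neurons (4 each) were made by adapter ligation, reverse transcription, PCR and gel size selection, per the labels' protocols. The authors deposited raw read counts and TPM per miRNA, per the file headers; the deposited TPM equals the count scaled to the library's listed reads (largest difference 4.51e-05). Neither labels nor headers name the aligner, the miRNA reference or the build. Groups came from sample titles. edgeR 4.0.16 (R 4.3.3; TMM, filterByExpr with minimum count 10 and total 15, robust quasi-likelihood F test, Benjamini-Hochberg at 0.05) was fitted to all miRNAs, 166 of which passed the filter. A check on simulated data set its pass mark only at a spread between libraries (dispersion) far below that of these data, whose median is 0.53. The check therefore does not show how often real changes would be called here. DESeq2 1.42.0 was an alternative. Ratios and shares (0.5 reads added) used exact permutation tests in scipy 1.17.1, and intervals of shares are exact Clopper-Pearson at 95%. Expected counting SD is the root mean of the summed inverse counts, on the log2 scale. No 2 libraries of a group agreed within sampling noise (chi-square per degree of freedom 358 or more), so none was treated as a repeat deposit of another, which does not show that they are separate cultures. Deviations from the group means correlated between same-numbered libraries at −0.25, 0.54, 0.77 and 0.89 for numbers 1 to 4. Between different-numbered libraries they ran from −0.79 (METH 3 with PBS 4) to 0.77 (METH 3 with PBS 1). The labels do not call the numbers pairs, and they were not taken as such. Whether same-numbered libraries were handled together was not tested. Named miRNAs are the members, the 3 nearest miRNAs of each, 4 cluster pairs and up to 4 most abundant miRNAs per list. miR-27a-3p, miR-124, miR-141-3p, miR-142, miR-155-5p, miR-218-5p and miR-219-5p were named after their values were seen. The lists covered cell death and inflammation regulators and markers of neurons and other cell types. Members, lists and alternatives were chosen with earlier results of these data known.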

Additional observations from a re-analysis of the deposited data

Results flagged for a closer look

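Within METH and within PBS, the TPM of each member and the total count were compared on the linear and log2 scales, 20 comparisons. On the linear scale, 4 held a library far from the other 3, measured by its gap to the nearest of them over the whole range. Chance gives about 1 in 20 where values are normally spread, which TPM and total counts need not be. miR-181a-5p in METH 3 had a gap of 0.894, at 16348 TPM against at most 3344 TPM in the other METH libraries. miR-181b-5p in METH 3 had a gap of 0.906, at 6408 TPM against at most 1559 TPM. The total counts of METH 4 and PBS 4 had gaps of 0.946 and 0.944, at 6702946 reads in METH 4 and 7334789 reads in PBS 4. On the log2 scale, added after the values were seen, the gaps were 0.719 for miR-181a-5p and 0.783 for miR-181b-5p in METH 3, and 0.767 and 0.763 for the total counts of METH 4 and PBS 4, and none of the 4 would be singled out.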

How the results depend on the processing

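No alternative gave a called miRNA, and 199 of 223 recomputed values kept their direction and their side of the threshold. That total includes 17 counts of calls, which all stayed at 0. It also includes the order of the members, whose direction never changed. Leaving out libraries could not have reversed that order, since every library gave the same one. Between METH and PBS, the family share reversed in 7 alternatives and kept its direction in 7. miR-181a-5p reversed in 5 and kept its direction in 12. The METH over PBS log2 fold change of miR-181a-5p was −0.06 with upper quartile factors and −0.24 with total counts only. With total counts only, those of miR-181b-5p and miR-181c-5p were −0.10 and −0.06. Leaving out 1 library in turn gave −0.81 to 1.33 for miR-181a-5p, −0.47 to 0.64 for miR-181b-5p, −0.53 to 0.13 for miR-181d, −0.08 to 0.58 for the a/b ratio and −0.71 to 0.59 for the family share. Without METH 3, PBS 1 and PBS 3, miR-181d had 0.15 and the family share 0.67. As a share of reads other than miR-21-5p, an alternative chosen after seeing the data like the ratios with no reads added, the family differed by 0.10. Without those 3 libraries the order of the members had log2 ratios of 0.77 (a over b), 2.32 (a over d), 7.03 (a over c), 1.55 (b over d), 6.26 (b over c) and 4.71 (d over c), each in the same direction in 5 of 5 libraries, where an exact p cannot go below 0.0625. With 3 libraries against 4, an exact p cannot go below 0.0571. The cause of the other reversals was not tested. With the replicate number as a block, the log2 fold changes were 0.51 for miR-181a-5p, 0.21 for miR-181b-5p, 0.51 for miR-181c-5p and −0.13 for miR-181d, the count of calls stayed at 0, and the c/d difference of 0.64 had an exact p of 0.125, the smallest that 4 pairs allow. Depth limits miR-181c-5p most, at 5 to 32 reads in 6 libraries.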

Other observations

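MIR27A stands next to MIR181C in RefSeq's gene table for TupChi_1.0, but miR-27a-3p, a miRNA known to restrain fat cell formation, did not run parallel to the c/d cluster. It was at 8521, 8914, 1963 and 7345 TPM in METH 1 to 4, against 2701, 9728, 3507 and 6829 TPM in PBS 1 to 4. In TPM it was thus lowest in METH 3, PBS 1 and PBS 3, where the miR-181 members were highest. Its reads ran from 38.1 to 1380 times those of miR-181c-5p and from 1.62 to 33.9 times those of miR-181d. The SD of the log2 ratio was 1.86 to miR-181c-5p and 1.84 to miR-181d, which ranked 139th and 135th of 165 from the steadiest. This pair of miRNAs was chosen after the values were seen.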
